A study of Mus with 6 samples.

Results

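Egr1, Egr2, Egr3, Egr4, Nr4a1, Nr4a2 and Nr4a3, which encode the Egr and Nr4a transcription factors, were examined in the hippocampus of male C57BL/6JJmsSlc mice after forced swim stress (FSS). Members were taken by gene symbol as the rows of the array table that carry exactly 1 symbol, and each of the 7 genes had a single such row, so the set holds 7 of the 19938 symbols and 7 of the 21789 rows tested. The study asked which hippocampal genes differ in a mouse model of depression. The 3 FSS mice swam for 11 min on each of 5 days in water of 25 °C, and the 3 control mice did not swim. The mice of both groups were wild type, 10 to 11 weeks old by the labels, and had 1 array each. The hippocampus was collected on Day 8, after the last swim on Day 5 and the tail suspension test on Day 6, a test that nonstressed mice of the study also received. Whether each mouse on the arrays took that test is not stated. The study ran 4 FSS mice on arrays, of which 3 were picked at random for its comparison.

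The Egr proteins (Krox-24, Krox-20, Pilot and NGFI-C are older names of Egr1, Egr2, Egr3 and Egr4) bind GC-rich promoter elements through zinc fingers. The Nr4a proteins (Nur77, Nurr1 and NOR-1 for Nr4a1, Nr4a2 and Nr4a3) are orphan nuclear receptors that act without a known hormone, so their activity is set largely by how much protein is made. In hippocampal neurons, calcium entry and growth factor signals induce most of these genes through CREB and through SRF with its Elk partners, the transcripts are short-lived, and the proteins are known for roles in synaptic plasticity and the consolidation of memory. Steady amounts are also made at rest, above all of Egr1, Egr3 and Nr4a1.

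All values are log2 levels made by robust multi-array averaging (RMA), where a difference of 1 is a doubling. Each difference is FSS minus control with a standard error (SE) and 95% interval from limma, which moderates the variance of each gene by that of all genes. The Egr and Nr4a genes differed little between the groups. Nr4a1 was lower in FSS mice by 0.19 on the log2 scale, a ratio of 0.877, and was the only member to pass an unadjusted p under 0.05. Nr4a3 was the only member with a difference above 0, and the 4 Egr genes did not pass. No member was called at the study's thresholds (a difference beyond 0.5 on the log2 scale in either direction, with an unadjusted p under 0.05), against 0.0688% of all genes tested. None passed an adjusted p of 0.05 either, nor did any of the 21789 rows (0%), of which 579 were lower and 542 higher at an unadjusted p under 0.05 (2.66% and 2.49%). With the variance of each gene alone, 445 were lower and 644 higher, and 0 passed after adjustment.

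The arrays were alike in their overall values. Their medians lay between 7.32 and 7.35 and their SDs between 2.22 and 2.27, and pairs of arrays correlated across genes at 0.997 to 0.998. RMA brings arrays to a common distribution, so the like medians and SDs were largely set by it and are no check of array quality. Of 18 measured markers of dentate granule cells and CA pyramidal cells, none lay below percentile 47.2 of all levels. The members lay at percentile 47.9 (Egr2) or higher, up to percentile 93.8 (Nr4a2). Probes differ in brightness, so these percentiles give no order of abundance between the genes.

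Nr4a1 encodes the orphan receptor Nur77, which neurons induce early after activity and which is also made in monocytes and macrophages. Its levels were 9.92, 10.08 and 10.20 in control mice 1, 2 and 3, and 9.88, 9.85 and 9.88 in FSS mice 1, 2 and 3. Every FSS mouse thus lay below every control mouse, but control mouse 1 lay only 0.030 above the highest FSS mouse. Over all genes, 4.25% were separated in this direction. The group means were 10.06 ± 0.14 (SD, n = 3) for control and 9.87 ± 0.017 (SD, n = 3) for FSS. FSS minus control was -0.19 (SE 0.073, 95% interval -0.36 to -0.016, limma unadjusted p = 0.036, adjusted p = 0.943). In ratios, the interval ran from 0.777 to 0.989. An exact two-sided permutation test gave p = 0.1, the smallest that 3 mice against 3 allow. Of all genes, 2.98% had a log2 fold change as low as this or lower. The call did not hold with array weights, with the variance of each gene alone, or without any 1 of 5 mice. Without control mouse 3, the highest, the log2 fold change was -0.12 (limma unadjusted p = 0.101). Without control mouse 2 or any FSS mouse it was -0.18 to -0.20 with unadjusted p from 0.072 to 0.087, and without control mouse 1, the lowest control, it was -0.26 (limma unadjusted p = 0.0036). Values from a homogenate of the whole hippocampus cannot tell fewer cells that make a transcript from less transcript per cell.

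Nr4a3 encodes NOR-1, the third receptor of the family. Control mice 1, 2 and 3 had levels of 9.94, 9.76 and 9.92, and FSS mice 9.95, 9.99 and 9.95. All FSS mice lay above all control mice, as did those of 6.02% of all genes, yet control mice 1 and 3 were close to FSS mice and only control mouse 2 stood lower. Its difference of 0.091 did not pass (SE 0.059, 95% interval -0.048 to 0.23, limma unadjusted p = 0.163, adjusted p = 0.945). It was 0.035 without control mouse 2 and 0.079 to 0.13 without any other mouse. The exact two-sided permutation test gave p = 0.1, as for Nr4a1, a value that the full separation of the groups fixes. The mean log2 level of markers of dentate granule cells was also lowest in control mouse 2. This was not particular to them. Control mouse 2 was likewise lowest for markers of CA pyramidal cells, astrocytes, microglia, and endothelium and mural cells. It was lowest for 18.7% of all genes. The summed log2 level of the granule cell markers was 12.44 to 12.56 in control and 12.57 to 12.59 in FSS mice. None of them lay in the lowest 25% of levels. At an unadjusted p under 0.05, 2 of 8 (Prox1 and Trpc6) were higher and 0 lower, against 2.49% and 2.66% of all genes. The part of granule cells in the values of Nr4a3 was not tested.

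Nr4a1 and Nr4a3 can also be set against each other within each mouse, as a description. The log2 level of Nr4a1 minus that of Nr4a3 was -0.022, 0.32 and 0.28 in control mice and -0.062, -0.13 and -0.069 in FSS mice. The difference between the group means was -0.28. This pair was chosen after its values were seen, and since each gene separated the groups in the opposite direction, so must their difference, which was not tested. Control mouse 1 lay 0.040 above FSS mouse 1 on this measure, so the size rests on control mice 2 and 3.

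Nr4a2 encodes Nurr1, which is required for midbrain dopamine neurons and in the forebrain marks neurons of the subiculum, claustrum and deep neocortex. Its levels were 10.72, 10.91 and 10.90 in control mice and 10.88, 10.73 and 10.74 in FSS mice. Control mouse 1 was the lowest of all and FSS mouse 1 lay with the high control mice, so the groups overlapped. FSS minus control was -0.060 (SE 0.069, 95% interval -0.23 to 0.11, limma adjusted p = 0.972). Markers of subiculum, claustrum and deep neocortex had a mean log2 level of 8.08 in control mouse 1, 8.25 in control mouse 2, 8.17 in control mouse 3, and 8.14, 8.14 and 8.09 in FSS mice. Control mouse 1 was lowest and control mouse 2 highest for both this list and Nr4a2. Control mouse 2 was also highest for the markers of GABAergic interneurons and of striatum, and for 20.2% of all genes. On the subiculum, claustrum and deep neocortex list FSS mice 1 and 2 were level, but in Nr4a2 they were not. Of the 10 measured markers of that list, 1 was lower (Foxp2) and 0 were higher at an unadjusted p under 0.05. The shares over all genes were 2.66% and 2.49%. None of the 10 lay in the lowest 25% of levels, and their summed level was 11.88 to 12.00 in control and 11.88 to 11.94 in FSS mice. The part of the dissection in Nr4a2 was not tested.

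**Figure D1:**
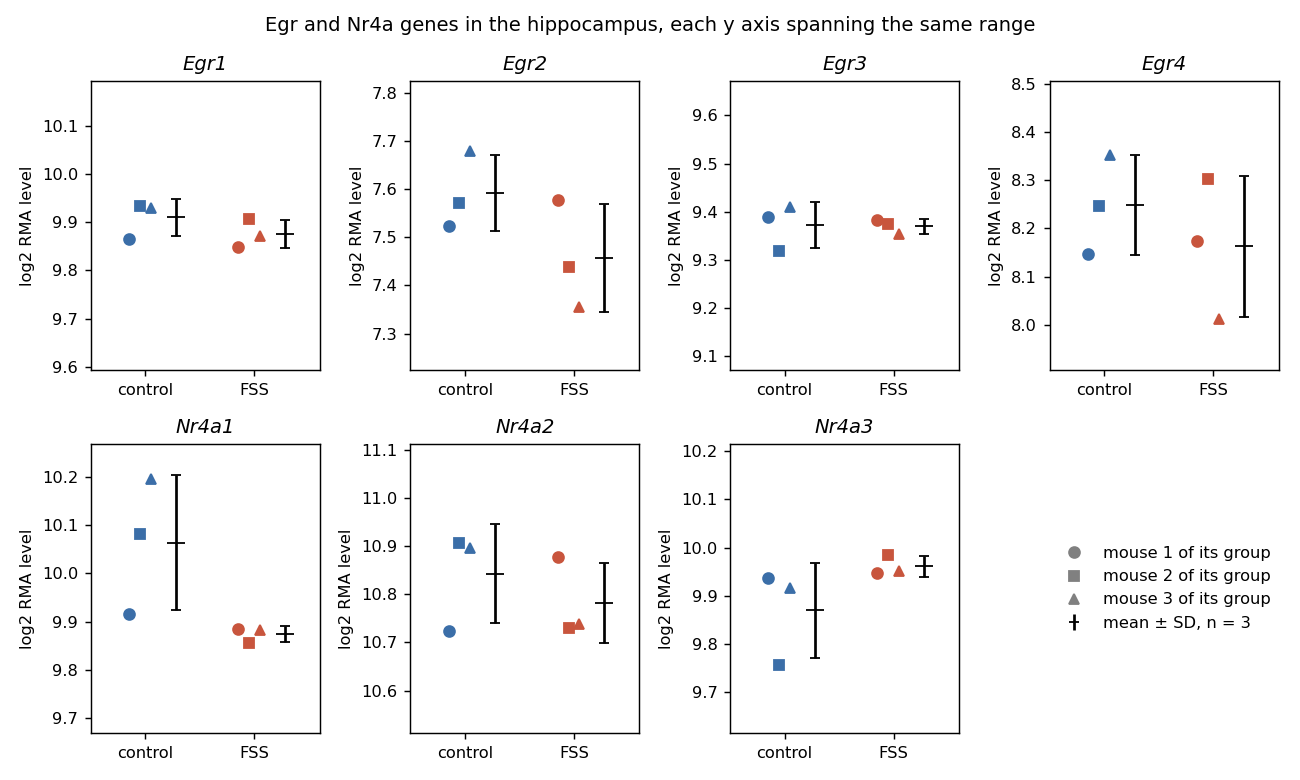
Log2 RMA level (y axis, spanning the same range in each panel) of the 7 genes in control and FSS mice (x axis). Symbols are mice and black bars the mean ± SD of 3 mice. Nr4a1 shows 3 FSS mice at 9.85 to 9.88 beneath controls spread from 9.92 to 10.20, whereas in Nr4a3 control mouse 2 alone stands low at 9.76.

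Egr1 is the member most used as a marker of neuronal activity and is needed for late phases of long-term potentiation. It was nearly level across mice, at 9.87, 9.93 and 9.93 in control and 9.85, 9.91 and 9.87 in FSS mice. The groups overlapped, and the whole range over the 6 mice was 0.085. The difference was -0.034 (SE 0.043, 95% interval -0.14 to 0.069, limma adjusted p = 0.973), which in ratios runs from 0.909 to 1.05.

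Egr3, which acts downstream of growth factor and synaptic signals and regulates GABA receptor subunits, was the least changed member. Control mice had levels of 9.39, 9.32 and 9.41, and FSS mice 9.38, 9.38 and 9.35. All FSS mice lay inside the control range. FSS minus control was -0.0018 (SE 0.044, 95% interval -0.11 to 0.10, limma adjusted p = 0.999), which in ratios runs from 0.929 to 1.07. Its sign turned to 0.0012 with each array centred on its median, and it ranged from -0.029 to 0.017 without each mouse.

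Egr2 encodes Krox-20, the regulator of peripheral myelination, which neurons also induce on strong activity. Levels were 7.52, 7.57 and 7.68 in control mice, and 7.58, 7.44 and 7.35 in FSS mice. FSS mice 2 and 3 lay below all controls, and FSS mouse 1 among them. A difference of -0.14, the lowest of the Egr genes, did not pass (SE 0.072, 95% interval -0.31 to 0.035, limma unadjusted p = 0.103, adjusted p = 0.943). Without FSS mouse 1 it was -0.20 and passed the unadjusted threshold (limma unadjusted p = 0.027), and without FSS mouse 3 it was -0.084.

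Egr4 encodes NGFI-C, the least studied of the family, which is made mainly in the nervous system. Its levels were 8.15, 8.25 and 8.35 in control mice and 8.17, 8.30 and 8.01 in FSS mice. It varied most of all members within the FSS group, with an SD of 0.15, and only FSS mouse 3 lay beneath the controls. Its log2 fold change was -0.086 (SE 0.088, 95% interval -0.29 to 0.12, limma adjusted p = 0.971), and it was -0.010 without FSS mouse 3 and -0.16 without FSS mouse 2.

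**Figure D2:**
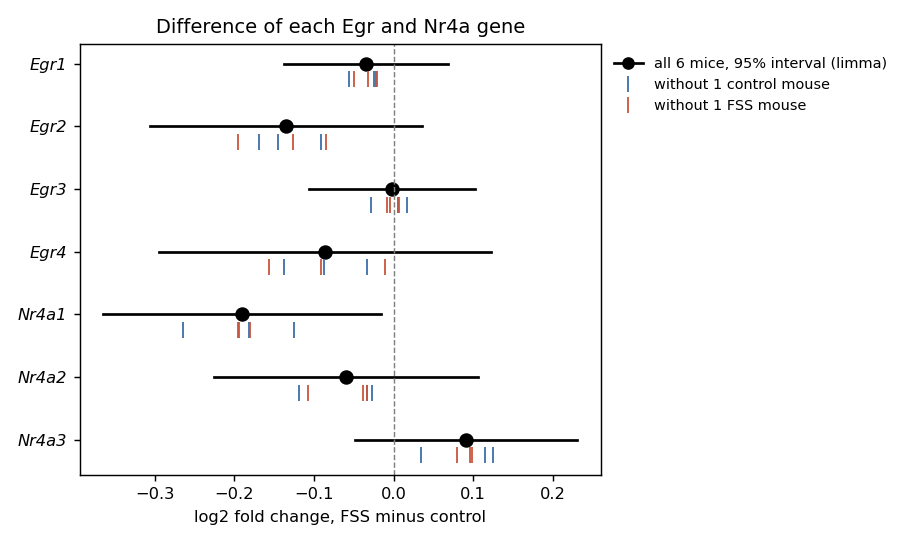
Difference between FSS and control mice as a log2 fold change (x axis) for each gene (y axis). Black points and lines are the value and 95% interval from all 6 mice, and coloured ticks beneath are the values without 1 control or 1 FSS mouse. Of the 7 intervals, that of Nr4a1 alone ends below 0, at -0.016, and its ticks run from -0.26 to -0.12.

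Taken over the set, 6 of 7 members had a log2 fold change below 0, against 47.0% of all genes. The 6 include Egr1 at -0.034 and Egr3 at -0.0018, and the sign of Egr3 turned under some alternatives. At an unadjusted p under 0.05, 1 of 7 was lower and 0 higher, against 2.66% and 2.49% of all genes. The median over the members was -0.060, beside 0.0049 over all genes. The median of the Egr genes alone and that of the Nr4a genes alone were both -0.060. The members shared mice as well as a group label. Control mouse 3 had the highest level for 4 of 7 members, whereas it was highest for 12.3% of all genes. It lay above the gene's own mean for 7 of 7, though for Nr4a3 by only 0.00063. FSS mouse 3 lay below that mean for 6 of 7. The shares of all genes above or below their own mean in these mice were not counted. The mean deviation over the members was 0.099 in control mouse 3 and -0.075 in FSS mouse 3, and between -0.027 and 0.018 in the other 4 mice. In 5 of 7 members, those other than Egr2 and Egr4, the SD was smaller in FSS than in control mice, and this held for 50.4% of all genes.

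Genes that act with the Egr and Nr4a proteins were then examined by list. Over all genes, 2.66% were lower and 2.49% higher at an unadjusted p under 0.05. Of 19 measured upstream regulators, among them Creb1, Srf, the Elk and Mef2 factors and the Crtc coactivators, 1 was lower and 0 were higher at an unadjusted p under 0.05 (median log2 fold change 0.0091). The lower gene was Atf1, a relative of CREB, with levels of 9.05, 9.13 and 9.13 in control mice and 8.997, 9.019 and 8.967 in FSS mice. It differed by -0.11 (SE 0.045, limma unadjusted p = 0.046, adjusted p = 0.943). It passed without control mouse 1 but not without any other single mouse, when it was -0.096 to -0.12, nor with each array centred on its median. Creb1 itself had a log2 fold change of 0.0091 and Srf one of -0.0083. Of 7 corepressors and partners, 0 were lower and 0 higher (median 0.045). The largest difference was that of Rcor1, part of the CoREST complex that Nr4a2 recruits, at 0.10 (limma adjusted p = 0.95), and Nab2, the corepressor that Egr proteins induce, had a log2 fold change of 0.045.

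Among 16 measured genes known as direct targets of these factors, 1 was lower, 1 was higher and 14 did not pass (median 0.036). Of all genes, 2.66% were lower and 2.49% higher. The lower gene was Arc, which encodes a cytoskeletal protein of dendrites that controls AMPA receptor uptake. Its levels were 10.00, 9.94 and 10.07 in control mice and 9.74, 9.85 and 9.72 in FSS mice, with no overlap. Arc had a difference of -0.23 (SE 0.058, limma unadjusted p = 0.005, adjusted p = 0.943). The higher gene was Id3, an inhibitor of basic helix-loop-helix factors that Egr proteins induce in thymocytes. Control mice 1, 2 and 3 had levels of 7.77, 7.75 and 7.84, and FSS mice 8.19, 8.13 and 8.12. The gap between the groups was wide against the spread within each. For Id3, FSS minus control was 0.36 (SE 0.046, limma unadjusted p = 0.000119, adjusted p = 0.872), the smallest unadjusted p of all genes tested. It was 0.34 to 0.39 without each mouse and passed the unadjusted threshold each time, as did Arc. The dopaminergic targets of Nr4a2, Th, Slc6a3 and Slc18a2, had log2 fold changes of -0.017, 0.047 and 0.011, at percentiles 25.9 to 35.0 of all levels.

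**Figure D3:**
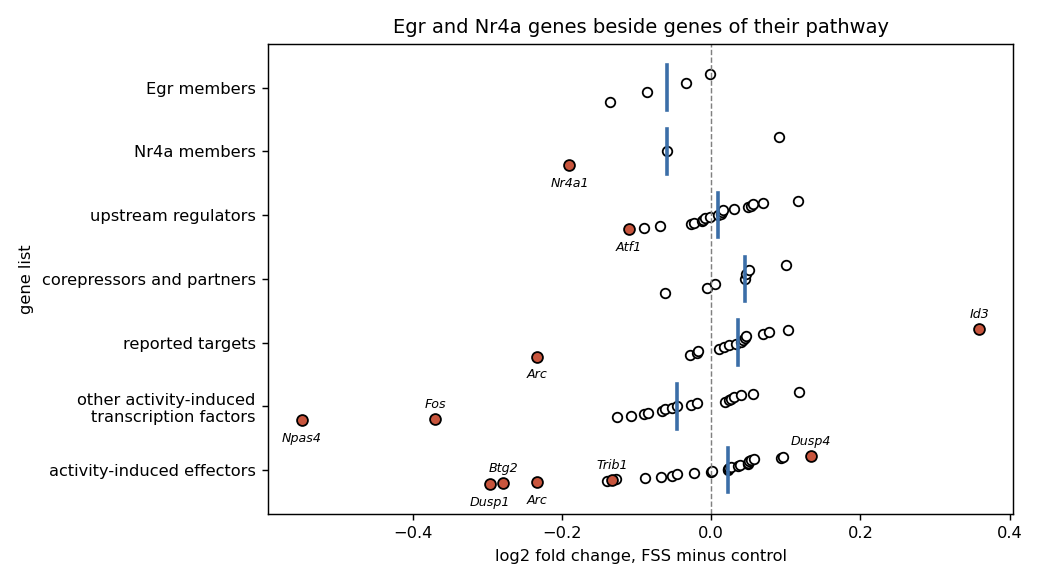
Difference between FSS and control mice as a log2 fold change (x axis) for the Egr and Nr4a genes and of the genes in 5 pathway lists (y axis). Circles are genes, filled and named at an unadjusted p under 0.05 from limma, and blue lines are list medians, which lie between -0.060 and 0.045. Arc stands in both the targets and the effectors, as it is in both lists.

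Of 19 other transcription factors induced by activity, Npas4 and Fos were lower and 0 were higher (median -0.046). Of 27 activity-induced effectors, 4 were lower (Arc, Dusp1, Btg2 and Trib1) and 1 was higher, Dusp4 (median 0.023). Of all genes, 2.66% were lower and 2.49% higher at this threshold. Npas4, a factor that responds to calcium entry alone, had levels of 8.26, 8.59 and 8.50 in control mice and 7.74, 8.15 and 7.81 in FSS mice. Fos, a subunit of AP-1, had levels of 7.12, 7.35 and 7.13 in control mice and 6.70, 7.06 and 6.73 in FSS mice. In both genes FSS mouse 2 lay well above the other FSS mice and just below the controls. The same mouse was the highest of the FSS group in Arc, in the antiproliferative gene Btg2 (8.23, 8.39 and 8.19) and in the MAP kinase phosphatase gene Dusp1 (9.94, 10.06 and 9.82), and among the members in Egr1, Egr4 and Nr4a3. In Nr4a1 and Nr4a2, by contrast, FSS mouse 2 had the lowest level of the FSS group. In Nr4a1 the FSS mice lay close together, at 9.85 to 9.88, so their order there carries little. FSS mouse 1 was the highest of its group in Nr4a1, Egr2, Egr3, Nr4a2 and Dusp4, and FSS mouse 3 in Trib1. FSS mouse 2 also had the lowest array weight, 0.65, against 0.83 to 1.32 in the other mice. The log2 fold change of Nr4a1 (-0.19) was smaller in size than those of Npas4 (-0.55), Fos (-0.37), Dusp1 (-0.30), Btg2 (-0.28) and Arc (-0.23), but whether they differ from it was not tested. Of these genes, Dusp1 alone had overlapping groups, as control mouse 1 (10.04) lay below FSS mouse 2 (10.06). Without each mouse in turn, Npas4, Fos, Arc and Btg2 passed the unadjusted threshold every time, and Nr4a1 did so 1 time of 6, though Fos and Dusp1 did not pass with the variance of each gene alone. Dusp1 and Trib1, a pseudokinase gene, passed 2 times of 6, and so did Dusp4, which encodes another MAP kinase phosphatase. Dusp1 ranged from -0.39 to -0.19, Trib1 (-0.13 with all mice) from -0.16 to -0.10, and Dusp4 (0.13 with all mice) from 0.11 to 0.16. Fos and Trib1 lay at percentiles 39.8 and 39.9 of all levels and were not tested without dim genes. Trib1 did not pass with another variance model, limma with trend and robust moderation (unadjusted p = 0.067).

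**Figure D4:**
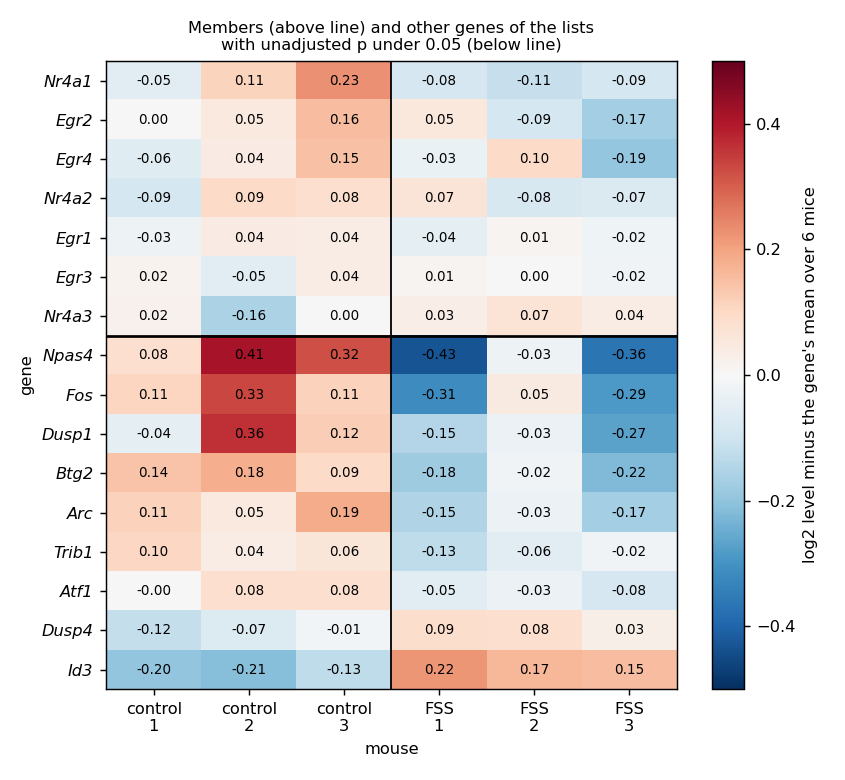
Deviation of each log2 level from the gene's mean over 6 mice (colour and printed value) by gene (y axis) and mouse (x axis), for the 7 members above the line and the other genes of the lists with an unadjusted p under 0.05 beneath it. Nr4a1 is at -0.08 to -0.11 in all 3 FSS mice, while Npas4 is at -0.43 and -0.36 in FSS mice 1 and 3 and at -0.03 in FSS mouse 2.

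Cell types other than neurons can also make these factors. Beside the marker counts that follow, 2.49% of all genes were higher and 2.66% lower at an unadjusted p under 0.05. Of 10 measured microglial markers, 3 were higher in FSS mice at an unadjusted p under 0.05 (Cx3cr1, P2ry13 and Trem2) and 0 were lower. Their summed log2 level was 12.30 to 12.46 in control and 12.46 to 12.52 in FSS mice, and Aif1 alone lay in the lowest 25% of levels. Of 10 markers of endothelium and mural cells, 1 was higher and 0 lower (summed level 11.61 to 11.77 and 11.71 to 11.85, none in the lowest 25% of levels). Of 10 markers of meninges, 2 were higher and 0 lower (12.01 to 12.05 and 12.11 to 12.20, none in the lowest 25%). Of 9 markers of choroid plexus 1 was higher, Ttr, and 0 were lower (10.11 to 10.52 and 10.57 to 10.83). Clic6, Otx2, Slc4a5 and F5 lay in the lowest 25%. Ttr had the largest log2 fold change of this list (0.95), and 4 of the 9 were below 0. The mean log2 level, in which each marker counts alike, overlapped between the groups (6.56 to 6.81 in control and 6.73 to 6.92 in FSS mice). That of the meningeal markers overlapped too (7.89 to 7.99 and 7.94 to 8.22). Of 10 markers of CA pyramidal cells 0 were higher and 0 lower (13.76 to 13.79 and 13.78 to 13.82). The part of any of these cell types in the levels of Nr4a1 and of the other members was not tested.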

How the data were processed

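RNA from the hippocampus of 3 control and 3 FSS mice was measured on GeneChip arrays of the type Mouse Gene ST, which are read in 1 colour, with an array for each mouse. The authors deposited log2 values made by RMA, which the submitters' processing notes credit to the Affymetrix Expression Console. RMA brings arrays to a common distribution and compresses small differences of dim probes. No genome build is named, so no coordinates were used, and no sequences were at hand. Of 28944 rows, 21789 carry 1 gene symbol in the array annotation, 1621 carry several and 5534 are unnamed here. By gene ID, 21698 were matched to RefSeq (GRCm38.p6), with 0 symbols changed. Where a symbol has several rows, the row with the highest mean was kept for lists.

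FSS minus control was fitted over the 21789 rows with limma 3.58.1 in R 4.3.3, without covariates, with Benjamini-Hochberg adjustment over all rows, and the fit was tested on simulated data. The number of arrays limits the precision. Samples were grouped by their titles. Members, lists and the rule for named genes were chosen with earlier results of these data known. Named are the members, list genes with an unadjusted p under 0.05 (otherwise the one of largest difference), and the 5 genes most like and most opposite to the members' mean profile. Creb1, Srf, Nab2, Th, Slc6a3 and Slc18a2 were named outside this rule. Marker lists were given as counts and summed levels, in places with mean levels. The markers of astrocytes (2 lower and 3 higher of 10), oligodendrocytes (0 and 0 of 9), interneurons (0 and 0 of 10), upper neocortex (0 and 1 of 5) and striatum (0 and 0 of 6) were also counted. These counts are at an unadjusted p under 0.05, which 2.66% of all genes passed as lower and 2.49% as higher. List genes without a row of their own symbol were not analysed here. Alternatives were other variance models, array weights, normalizations, filters, a replicate block and the omission of each mouse in turn.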

Additional observations from a re-analysis of the deposited data

How the results depend on the processing

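The number of members lower at an unadjusted p under 0.05, 1 with all mice, was 0 with the variance of each gene alone and 0 with array weights (Nr4a1 at -0.17), and it ranged from 0 to 1 without each mouse. Over all 21789 rows, 445 were lower with the variance of each gene alone, 777 with array weights and 389 to 922 without each mouse. The 1 member lower without FSS mouse 1 was Egr2 and not Nr4a1. The cause of these changes was not tested. The counts of members higher, called at the study's thresholds or below an adjusted p of 0.05 were 0 under all 14 alternatives. The log2 fold changes of all members but Egr3 kept their sign under every alternative. That of Egr3 turned to 0.0012 with each array centred on its median and ranged from -0.029 to 0.017 without each mouse. Without dim genes Egr2 was not tested. Each member has 1 row, so a mean over rows changes nothing.

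The replicate numbers in the labels were not shown to pair the mice. Deviations from the group means correlated across genes at -0.048, 0.14 and 0.24 for numbers 1, 2 and 3. Control mice 2 and 3 correlated best with the FSS mouse of their own number, but control mouse 1 with FSS mouse 2 (0.13). With the replicate block, 1 member (Nr4a1) was lower, as without it, while over all genes 790 were lower and 704 higher, against 579 and 542. Atf1, Dusp4 and Trib1 did not pass with the block. With 3 arrays a group, the 95% intervals of 6 of 7 members hold 0.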

Other observations

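Among 9852 other genes at or above the median level, those whose levels over the 6 arrays were most like the mean deviation of the 7 members were Macrod2 (Pearson's r = 0.966), Adcy1 (0.964), Spaca6 (0.961), Ube4a (0.960) and Syt3 (0.959). Adcy1 encodes an adenylyl cyclase stimulated by calcium and Syt3 a synaptotagmin. Their log2 fold changes lay between -0.12 and -0.033, and none passed an unadjusted p under 0.05. The most opposite were Aup1 (r = -0.983), Dvl2 (-0.981), Lrrn2 (-0.978), Supt3 (-0.978) and Commd4 (-0.977), with log2 fold changes of 0.022 to 0.039. With 6 arrays and this many genes, 37 genes exceeded 0.9 and 53 fell below -0.9, so the values are a description and were not tested. Against the mean of the other 6 members, Egr2 had the highest r (0.84), Egr4 and Nr4a1 followed (0.72 and 0.70), and Nr4a3 alone was negative (-0.46).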
